A study of Homo sapiens with 9 samples.

Results

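The proteasome is the large protease that degrades ubiquitin-tagged proteins. Its 20S core is a barrel of alpha rings, which gate the entrance, and beta rings, which carry the proteolytic sites. The 19S regulatory particle caps the barrel, binds ubiquitin chains, removes them and unfolds the substrate with a ring of ATPases. RNF4, the gene expressed in these tumours, encodes a ubiquitin ligase that recognises SUMO-modified proteins and marks them for this machine. In melanoma the proteasome is also the source of most peptides shown on class I molecules, and interferon exchanges the 3 catalytic beta subunits for the immunoproteasome forms.

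The genes described here were the protein-coding genes of the count table whose symbols start with PSMA, PSMB, PSMC, PSMD, PSME, PSMF or PSMG followed by a number. The rule found 49 genes among 57820 identifiers, on 17 chromosomes. They were 7 alpha ring genes, 9 beta ring genes of ordinary tissues, a further 2 tissue-restricted 20S genes, 6 ATPases and 11 other subunits of the 19S particle, 3 chaperones of 19S assembly, 4 chaperones of 20S assembly, and 5 activators or inhibitors. The remaining 2 genes, PSMC3IP and PSME3IP1, carry the symbol but encode no proteasome subunit, so 47 of the 49 belong to the proteasome by name and role. PSMB3 was not analysed here. After a filter on low counts, 47 of the 49 genes were tested among 18618 genes. The 2 that did not pass were PSMA8, a testis form, with 0 to 5 reads a library, and PSMB11, a thymus form, with 0 to 2 reads a library.

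The samples were xenografts of A375, a human melanoma line with mutant BRAF, grown in nude mice, which lack T cells but keep other leukocytes. The cells carried a doxycycline-inducible RNF4 or an RNF4 with a mutated RING domain, the part that carries the ligase activity, so the transgene sat in the tumour cells and not in the host. The 3 groups were RNF4 with doxycycline (Dox), the RING mutant with Dox, and RNF4 without Dox. The mice drank Dox from day 3, and tumours were collected on day 30. Each group had 3 libraries, each from 2 pooled tumours, made from 800 ng of RNA and sequenced as single reads of 50 bases. The series text speaks of tumours expressing GFP as the control, whereas the sample labels describe RNF4 without Dox; the labels were followed, so what the third group is rests on them. No group carried the RING mutant without Dox, and no group received Dox without a transgene. The libraries are named by the table's columns. T2, T5 and T13 were the RNF4 libraries that had Dox. The RING mutant libraries, also given Dox, were T3, T6 and T14. T1, T4 and T12 carried RNF4 and had no Dox. Nothing in the labels says that libraries of a group came from separate cell cultures, so p-values measure the spread between these libraries.

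Assigned reads numbered 16416426 to 28934692 a library, and the 49 proteasome genes took 0.559% to 0.732% of them. RNF4 reached 380.1, 413 and 454 CPM (the edgeR CPM value, a library's reads scaled to a common total) in T2, T5 and T13, against 33.4, 52.0 and 43.2 CPM in T1, T4 and T12. In the libraries labelled RING mutant it was 47.05 CPM in T3, 559 CPM in T6 and 63.5 CPM in T14, so T3 and T14 lay near the level without Dox. A further pair of libraries stood apart. The 85 ribosomal protein genes took 16.1% of reads in T2 and 26.0% in T1, against 6.52% to 9.73% in the other 7 libraries. Since T2 has Dox and T1 has none, the comparisons are given with and without both. The melanoma label could be checked only in part: SOX10, a neural crest factor that melanoma keeps, had 39.0 to 80.9 CPM and PRAME, a melanoma antigen, 137 to 155 CPM, while the pigment enzyme TYR was at 0 to 1.48 CPM. Of the 10 lineage markers listed, 3 more were low, but the 10 together had 666 to 1143 CPM in a library. Low levels thus did not hold for the whole list. PMEL averaged 1.27 ± 0.44, 4.21 ± 5.18 and 1.68 ± 0.46 CPM in RNF4 with Dox, the RING mutant and RNF4 without Dox. TYRP1 averaged 0.70 ± 0.26, 3.17 ± 4.29 and 0.26 ± 0.08 CPM in the same groups (SDs of 3 libraries). In the RING mutant the SD of both exceeded the mean. S100B averaged 1.54 ± 0.95 CPM in RNF4 with Dox and 4.18 ± 3.85 CPM in RNF4 without Dox. Markers of host tissue varied as well: the summed level of 15 skeletal muscle markers was 19.5 to 268 CPM in RNF4 with Dox, 26.3 to 1036 CPM in the RING mutant and 25.5 to 55.5 CPM in RNF4 without Dox.

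Promoters of the genes were searched for response elements known to act on such genes, and 4 are printed as examples. RefSeq promoters (GRCh38.p14, 250 bases before to 50 after the start site) were held for 43 of the 49 genes. The core of the interferon-stimulated response element, GAAANNGAAA on either strand, was in promoters of 7 of those 43 genes (16.3%), against 4.38% of 27305 genes. The 7 were PSMA4, PSMB4, PSMB8, PSMB10, PSME1, PSME2 and PSMG4, a gene being counted where any of its listed promoters held the letters. PSMA4 has 3 listed promoters, and the interferon core is in another of them (chr15:78540155-78540454, plus strand) than the one printed. The core of the antioxidant response element, TGACNNNGC on either strand, to which NFE2L1 and NFE2L2 are known to bind, was in 14 of 43 (32.6%), against 16.1%. The gamma-activated site, TTCNNNGAA, was in 8 of 43 (18.6%), against 9.38%, and the CCAAT box in 21 of 43 (48.8%), against 39.7%. A match describes the letters only. The PSMB10 promoter (chr16:67936801-67937100, minus strand) and the PSME2 promoter (chr14:24146561-24146860, minus strand) hold the interferon element, in capitals, and the PSMA4 promoter (chr15:78540536-78540835, plus strand) and the PSMD1 promoter (chr2:231056617-231056916, plus strand) hold the antioxidant element, in capitals.
PSMB10: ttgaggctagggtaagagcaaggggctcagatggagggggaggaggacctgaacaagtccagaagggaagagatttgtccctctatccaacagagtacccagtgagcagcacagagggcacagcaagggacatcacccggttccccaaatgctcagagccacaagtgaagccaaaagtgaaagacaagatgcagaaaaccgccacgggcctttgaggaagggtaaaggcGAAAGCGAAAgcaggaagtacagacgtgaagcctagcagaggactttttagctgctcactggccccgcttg
PSME2: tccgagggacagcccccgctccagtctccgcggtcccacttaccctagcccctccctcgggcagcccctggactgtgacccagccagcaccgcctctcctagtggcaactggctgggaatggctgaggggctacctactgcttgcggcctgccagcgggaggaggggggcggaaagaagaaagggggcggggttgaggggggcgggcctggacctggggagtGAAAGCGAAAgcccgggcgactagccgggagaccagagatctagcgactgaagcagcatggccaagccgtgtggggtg
PSMA4: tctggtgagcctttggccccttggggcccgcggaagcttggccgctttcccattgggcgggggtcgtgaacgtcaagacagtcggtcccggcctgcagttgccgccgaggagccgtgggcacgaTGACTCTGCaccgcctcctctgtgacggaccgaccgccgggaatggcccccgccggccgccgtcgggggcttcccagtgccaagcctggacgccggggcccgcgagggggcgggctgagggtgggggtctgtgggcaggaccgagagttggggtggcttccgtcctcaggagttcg
PSMD1: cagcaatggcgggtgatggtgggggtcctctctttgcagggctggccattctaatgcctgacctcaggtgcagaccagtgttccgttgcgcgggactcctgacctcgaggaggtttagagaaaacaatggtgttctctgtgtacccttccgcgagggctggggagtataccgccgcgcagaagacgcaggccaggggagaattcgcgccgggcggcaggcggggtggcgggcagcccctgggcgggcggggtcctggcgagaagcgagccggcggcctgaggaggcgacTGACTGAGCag
PSMB10 and PSME2 belong to the interferon-inducible parts of the proteasome. PSMA4 and PSMD1 are among the 14 genes that hold the antioxidant core. Whether a match bears on the level of a gene in these libraries was not tested.

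The proteasome genes did not behave as a single block across the libraries, and the division ran between T1 and T2 and the rest. PSMA5, an alpha ring subunit (chr1:109399031-109426427, minus strand, GRCh38), reached 475 CPM in T2 and 770.2 CPM in T1. In the other libraries it was 146 and 164 CPM in RNF4 with Dox, 247, 220.1 and 159 CPM in the RING mutant, and 149 and 142 CPM in RNF4 without Dox. T1 and T2 were thus far above the other 7, which differed among themselves by at most 1.73-fold. PSMD2, a large scaffold subunit of the 19S particle (chr3:184298709-184309054, plus strand), did the reverse. It had 227 CPM in T2 and 194 CPM in T1. In the other libraries it had 383 and 362 CPM in RNF4 with Dox, 388, 351 and 315 CPM in the RING mutant, and 411 and 333 CPM in RNF4 without Dox. The ratio of PSMA5 to PSMD2 reads was 2.1 in T2 and 3.97 in T1, against 0.362 to 0.636 in the other 7 libraries.

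**Figure D1:**
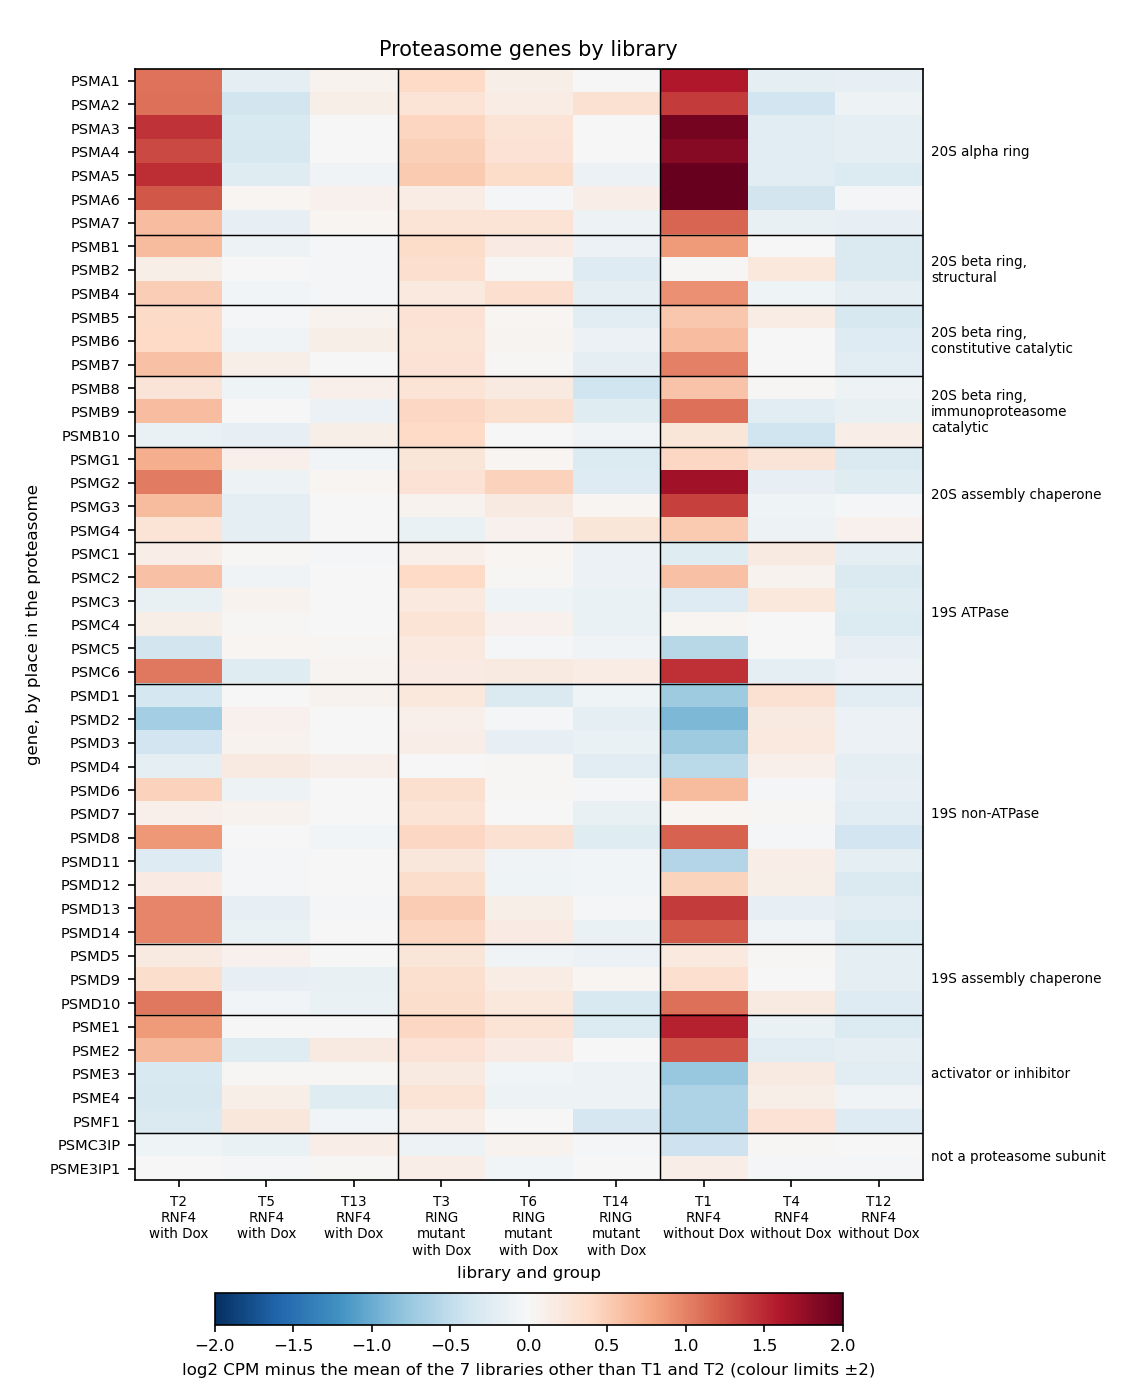
Rows are the 47 tested genes ordered by their place in the proteasome, columns are the 9 libraries by group, and the colour is log2 CPM minus the mean of the 7 libraries other than T1 and T2. T2 and T1 are red for all 7 alpha ring genes and blue for PSMD1, PSMD2, PSMD3, PSMC5 and PSME3, while the other columns stay pale, with T3 slightly red for most rows.

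All 7 alpha ring genes lay above every one of the other 7 libraries in both T1 and T2. Set against the mean of those 7 on the log2 scale, the 7 genes were 0.62 to 1.47 higher in T2 (median 1.24) and 1.16 to 2.39 higher in T1 (median 1.82). PSMA7 was at the low end with 0.62 in T2 and 1.16 in T1. PSMA3 stood at 291 CPM in T2 and 404 CPM in T1, against 87.0 to 144 CPM in the other 7 libraries. PSMA4 stood at 535 CPM in T2 and 760.4 CPM in T1, against 172 to 299 CPM in the others. PSMA6 had 23.3 CPM in T2 and 51.5 CPM in T1, against 7.64 to 11.0 CPM. PSMA5, PSMA6 and PSMA3 had the largest spread of all members over the 9 libraries, with SDs of log2 CPM of 0.86, 0.86 and 0.79. Over the 7 libraries without T1 and T2 those SDs were 0.31, 0.18 and 0.27.

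Among beta ring genes the excess was smaller. The structural subunits PSMB1 and PSMB4 were 0.63 and 0.50 higher in T2 and 0.86 and 0.92 higher in T1 on the log2 scale, whereas PSMB2 was 0.11 and 0.03 higher and stayed within the range of the other libraries. The constitutive catalytic genes PSMB5, PSMB6 and PSMB7 were 0.38, 0.40 and 0.58 higher in T2 and 0.53, 0.62 and 1.01 higher in T1. The immunoproteasome genes PSMB8, PSMB9 and PSMB10 were 0.25, 0.61 and -0.13 from that mean in T2 and 0.58, 1.11 and 0.24 in T1. The 20S assembly chaperones were above all 7 other libraries in both T1 and T2, led by PSMG2 with 1.04 in T2 and 1.68 in T1. PSMG2 pairs with PSMG1 to start the alpha ring, and PSMG1 showed 0.73 in T2 and 0.41 in T1. POMP, a maturation factor of the beta ring that is not named PSM, had 305 CPM in T2 and 566 CPM in T1, against 108 to 178 CPM in the other 7 libraries.

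The 19S particle was split within itself. PSMC6, an ATPase, was 1.05 higher in T2 and 1.46 higher in T1, and PSMC2 was 0.58 and 0.59 higher. PSMC5, an ATPase of the same ring, was lower by the same measure, at -0.37 in T2 and -0.56 in T1, while PSMC1, PSMC3 and PSMC4 lay between -0.25 and 0.13 in both. Among non-ATPase subunits, PSMD14, the enzyme that cuts ubiquitin chains off the substrate, had 272 CPM in T2 and 325 CPM in T1, against 115 to 186 CPM in the other 7 libraries. PSMD13 and PSMD8 were likewise higher, by 0.97 and 0.87 in T2 and by 1.40 and 1.19 in T1. PSMD6 was 0.45 and 0.64 higher, PSMD12 0.17 and 0.45, and PSMD7 0.10 and 0.04, in T2 and T1 in turn. The scaffold subunits PSMD1 and PSMD2, the subunits PSMD3 and PSMD11, and the ubiquitin receptor PSMD4 were lower in both, at -0.67 to -0.19 in T2 and -0.90 to -0.54 in T1. Of the 19S assembly chaperones, PSMD10 was 1.06 higher in T2 and 1.099 higher in T1, PSMD9 was 0.35 and 0.33 higher, and PSMD5 was 0.17 and 0.19 higher. The sum of the 7 alpha ring genes over the sum of the 17 genes of the 19S particle was 0.635 in T2 and 0.901 in T1, against 0.27 to 0.396 in the other 7.

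The activators did not move together. PSME1 and PSME2 form the 11S activator that interferon induces, and lie close together on chromosome 14. PSME1 had 211 CPM in T2 and 341 CPM in T1, against 96.4 to 155 CPM in the other 7 libraries, and PSME2 had 116 CPM in T2 and 178 CPM in T1, against 62.8 to 91.4 CPM. PSME3, the nuclear relative of this activator, had 163 CPM in T2 and 119 CPM in T1, against 171 to 227 CPM. PSME4, the single-chain activator, and PSMF1, an inhibitor of the 20S core, were also lower, at -0.31 and -0.29 in T2 and -0.62 and -0.62 in T1. The 2 genes that are no proteasome subunits varied little: PSME3IP1 had 86.2 to 98.1 CPM over all 9 libraries, with the smallest SD of log2 CPM of the 47 genes (0.07), and PSMC3IP had 12.3 to 17.8 CPM.

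In all, 35 of 47 genes (74.5%) were above the mean of the other 7 libraries in T1 and 35 in T2, against 51.1% and 52.0% of the 18618 genes. In T1, 30 genes (63.8%) were above all 7 and 12 (25.5%) below all 7, against 31.7% and 28.96% of all genes. In T2, 27 (57.4%) were above and 7 (14.9%) below, against 28.4% and 23.6%. T1 and T2 deviated alike, gene by gene: over the 47 genes Pearson's r was 0.96, and over all 18618 genes it was 0.81. Both values share the subtracted mean of the other libraries and are given as a description.

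Genes on either side differed in the length of their coding sequence. Across the 47 genes the deviation in T2 and in T1 ran against coding length with Spearman's rho of -0.46 and -0.45, and across 13863 protein-coding genes with -0.41 and -0.48. Both lists describe these libraries, and genes are not independent replicates. The 28 genes with coding sequences of up to 900 bases had a median deviation of 0.61 in T2 and 0.97 in T1, against 0.36 and 0.47 for 3615 genes of that length. The 5 genes of over 1500 bases had -0.35 in T2 and -0.71 in T1, against -0.20 and -0.36 for 6303 genes. Length did not separate all of them, since PSME3 with 762 coding bases was low in both and PSMC6 with 1209 was high. GC content of the transcript ran with rho of -0.29 in T2 and -0.18 in T1 over the members, and -0.48 and -0.41 over the 13863 genes. The part of length, GC content and the ribosomal protein share in the values of T1 and T2 was not tested.

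Levels differed widely within the parts of the complex. Per kilobase of all exons, and as a mean of the 9 libraries, the 20S and 19S genes with the highest level were PSMA7 with 228 CPM per kb and PSMB4 with 225 CPM per kb. Among alpha ring genes the lowest was PSMA6 with 2.46 CPM per kb, which is 92.6-fold below PSMA7 although the ring holds both in equal number. PSMA2 had 3.02 CPM per kb. Both values depend on the length used: per kilobase of the main transcript PSMA2 was the lowest with 10.8 CPM per kb, 36.9-fold below PSMA7, and PSMA6 had 15.6 CPM per kb. Their counts are uncertain, because 81.0% of the main transcript of PSMA6, 52.5% of that of PSMA2 and 53.2% of that of PSMA1 overlap another annotated gene on the same strand. The table gave those overlapping genes 92, 1 and 0 reads in all libraries together. For PSMA6, 4 pseudogenes also held 32.9% as many reads as the gene itself. PSMB10 (45.3%) and PSMD9 (43.8%) overlap other genes in the same way, and their levels carry the same doubt. Here the overlapping genes held more reads, 559 beside 1608 of PSMB10 and 903 beside 2569 of PSMD9 in all libraries together. Over all members, 42 pseudogenes held 0.249% as many reads as their parent genes.

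Within the 19S particle the ATPases ran from 6.88 CPM per kb in PSMC1 to 81.97 in PSMC4, with a median of 38.9. The non-ATPase subunits ran from 19.04 CPM per kb in PSMD6 to 72.1 in PSMD8, with a median of 33.7. The 19S assembly chaperones had 1.52 CPM per kb for PSMD9, 12.1 for PSMD5 and 28.6 for PSMD10. The 20S assembly chaperones ran from 2.39 CPM per kb in PSMG4 to 37.8 in PSMG3, and the activators and the inhibitor from 16.9 in PSME4 to 86.2 in PSME1. PSMB2 was the lowest structural beta gene with 39.4 CPM per kb, and the non-subunits had 6.11 in PSMC3IP and 20.8 in PSME3IP1. The main transcript in place of all exons, a choice made after the data were seen, changed several of these places. PSMG4 then had 29.7 CPM per kb, and PSMG1 was the lowest 20S assembly chaperone with 23.6. PSMD12 was the lowest non-ATPase subunit with 29.4, and PSME3 the highest activator with 189. The class medians were 74.7 CPM per kb for the ATPases and 89.6 for the non-ATPase subunits, in the other order than per kilobase of all exons.

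Transcripts of the constitutive catalytic genes outnumbered those of the immunoproteasome genes. PSMB5, the chymotrypsin-like site, had 125, 95.1 and 101 CPM in RNF4 with Dox, 118, 98.8 and 82.6 CPM in the RING mutant, and 139, 106 and 77.3 CPM in RNF4 without Dox. Its immunoproteasome counterpart PSMB8, which lies beside PSMB9 in the class II region of the major histocompatibility complex on chromosome 6, had 17.03, 13.5 and 15.4 CPM in RNF4 with Dox, 17.3, 16.1 and 10.9 CPM in the RING mutant, and 21.3, 14.5 and 13.3 CPM in RNF4 without Dox. The groups overlapped for both. PSMB6 averaged 114 ± 18.8 CPM in RNF4 with Dox, 108 ± 14.9 CPM in the RING mutant and 115 ± 37.6 CPM in RNF4 without Dox (SD, n = 3 each). Its counterpart PSMB9 averaged 11.3 ± 3.2 CPM, 11.2 ± 2.5 CPM and 12.8 ± 7.2 CPM in the same groups. PSMB7 averaged 319 ± 72.3 CPM in RNF4 with Dox, 279 ± 45.1 CPM in the RING mutant and 345 ± 170.4 CPM in RNF4 without Dox. Its counterpart PSMB10 averaged 7.90 ± 0.86 CPM, 8.92 ± 1.63 CPM and 8.34 ± 1.83 CPM in the same groups. Without T1 and T2, where each RNF4 group has 2 libraries, PSMB6 averaged 104 CPM with Dox and 93.5 CPM without, PSMB9 9.39 and 8.59 CPM, PSMB7 278 and 248 CPM, and PSMB10 8.10 and 7.65 CPM.

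The 3 immunoproteasome genes together made 6.04% ± 0.44 of the reads of the 6 catalytic genes in RNF4 with Dox, 6.65% ± 0.51 in the RING mutant and 6.34% ± 0.88 in RNF4 without Dox (SD, n = 3 each). The share was 5.64% to 7.36% over the 9 libraries, and T1 (5.86%) and T2 (5.64%) were inside or next to the range of the others (5.8% to 7.36%). Without T1 and T2 it was 5.97% and 6.52% in RNF4 with Dox, against 5.8% and 7.36% in RNF4 without Dox. The single pairs did split by library. PSMB10 was at 1.87% of PSMB7 in T2 and 1.8% in T1, below the 2.36% to 3.94% of the other 7 libraries. PSMB9 was at 11.1% of PSMB6 in T2 and 13.4% in T1, against 8.15% to 11.5% in the other 7, so that T1 was above them all. PSMB8 was at 13.6% of PSMB5 in T2 and 15.3% in T1, inside the 13.1% to 17.2% of the others. The contrast stood per kilobase of all exons as well. The 3 immunoproteasome genes had 3.82 to 5.17 CPM per kb, against 59.4 to 176 CPM per kb for the 3 constitutive ones. Per kilobase of the main transcript the values were 6.88 to 15.0 against 81.0 to 321 CPM per kb. Leukocytes of the host can carry immunoproteasomes. The summed level of 19 leukocyte markers was 141 to 183 CPM in RNF4 with Dox, 156 to 256 CPM in the RING mutant and 144 to 200.03 CPM in RNF4 without Dox. MS4A1 was at 0 in every library. CD74 alone averaged 63.2, 93.7 and 85.2 CPM in the same groups, and CYBB 0.85, 2.04 and 1.05 CPM. Reads were aligned to GRCh38, so the sum does not give the host's leukocyte content. The part of leukocytes in the level of PSMB8, PSMB9 and PSMB10 was not tested. Fewer cells of a type and less RNA per cell cannot be told apart in these bulk samples.

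The first comparison was RNF4 with Dox over RNF4 without Dox. These groups differ in both RNF4 induction and the drug, whose parts cannot be told apart here. No proteasome gene passed the test in edgeR's quasi-likelihood fit, where 0.0% of the 18618 genes were called at an adjusted p under 0.05. At an unadjusted p under 0.05 the count was 0 of 47 members, against 0.596% of all genes. In no member did the groups separate, against 0.875% of all genes with every RNF4 library higher and 1.44% with every one lower. The log2 fold changes of the 47 genes ran from -0.65 to 0.23 with a median of -0.06, and 18 of 47 (38.3%) were above 0, beside a median of -0.03 and 44.3% above 0 over all genes. The median SE of a member was 0.27.

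Beneath the median the classes stood on opposite sides of 0. All 7 alpha ring genes were below 0 (median -0.28), while 5 of 6 ATPases (median 0.09) and 6 of 11 non-ATPase subunits (median 0.05) were above it. The 3 members with the smallest p above 0 were PSMD4, PSMC1 and PSMC4. PSMD4, which captures ubiquitin chains, had 171, 220.3 and 209 CPM in RNF4 with Dox, against 134, 209 and 169.6 CPM in RNF4 without Dox. The groups overlapped, and its log2 fold change was 0.23 ± 0.22 (SE; unadjusted p = 0.333, adjusted p = 0.99998, edgeR). The ATPases PSMC1 and PSMC4 had 0.11 ± 0.18 and 0.11 ± 0.20. Below 0 the 3 smallest p-values belonged to PSMG3 (-0.39 ± 0.39), PSMA6 (-0.65 ± 0.66) and PSMG4 (-0.16 ± 0.22). Their unadjusted p in edgeR lay between 0.342 and 0.504, and their adjusted p was 0.99998. PSMG3 works with PSMG4 in placing the alpha subunits. Its values were 93.1, 53.0 and 59.7 CPM in RNF4 with Dox, against 153.9, 56.1 and 58.9 CPM in RNF4 without Dox, where T2 and T1 were each the highest of their group.

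**Figure D2:**
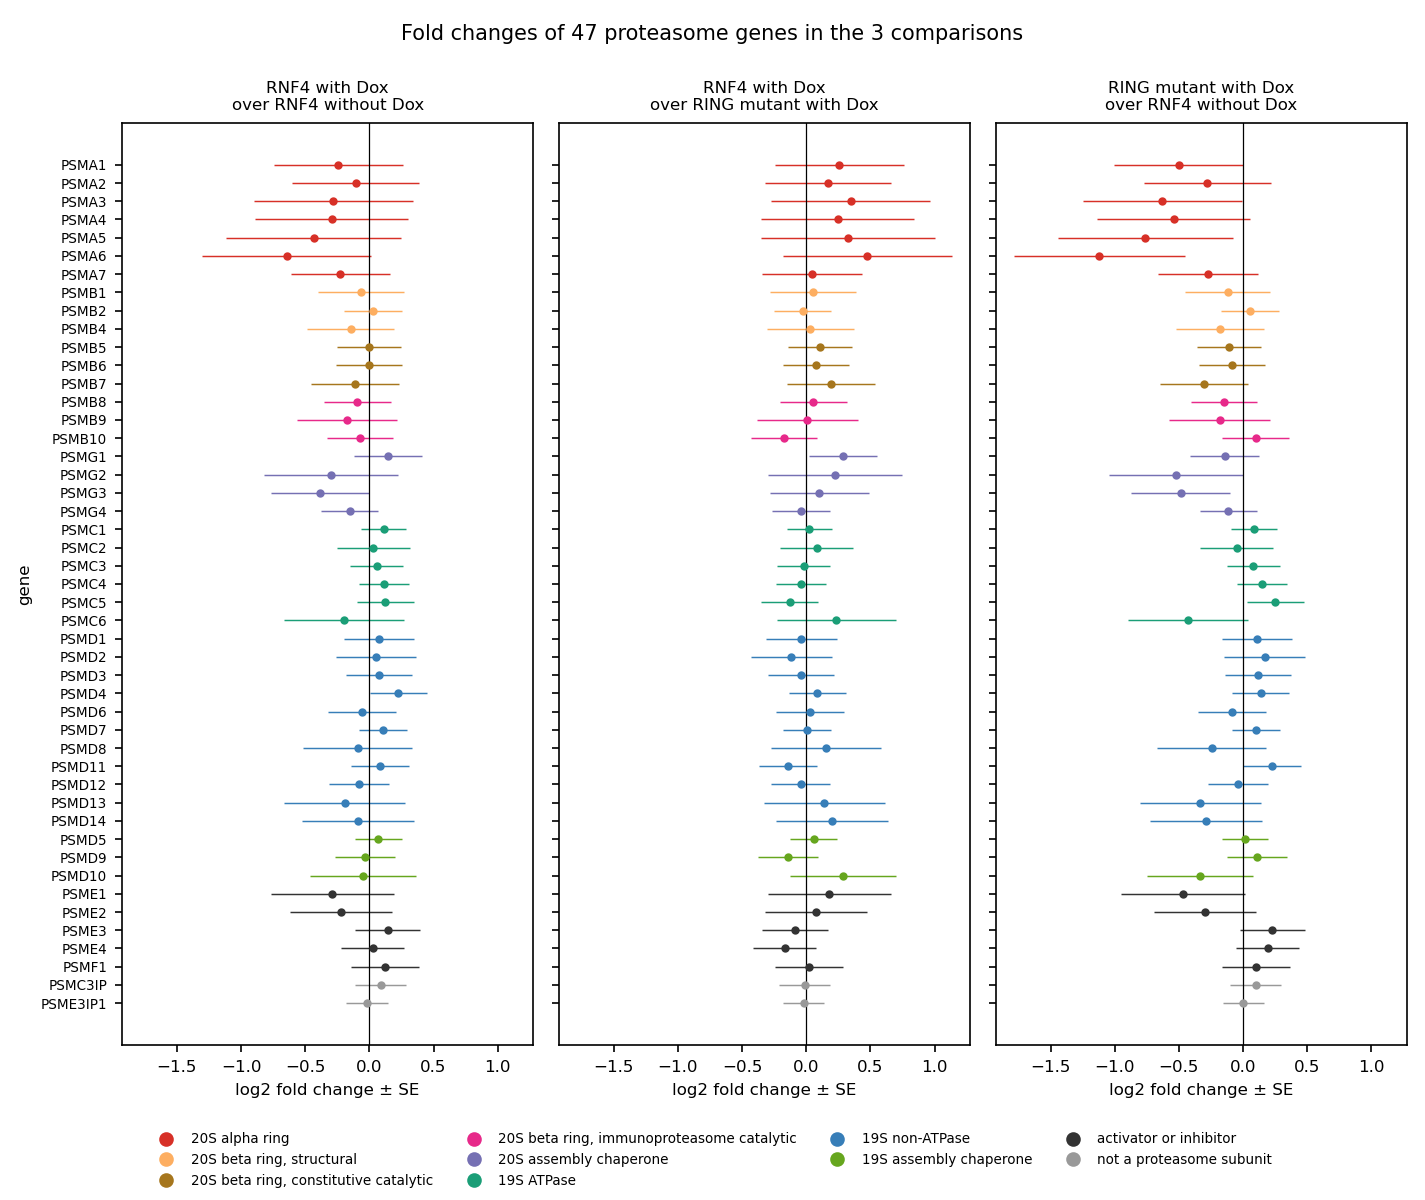
Points are log2 fold changes of the 47 tested genes with their SE (bars) in the 3 comparisons over all 9 libraries, coloured by class. Most bars cross 0, and the alpha ring genes have long bars and lie left of 0, right of 0 and left of 0 in the 3 panels from left to right.

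Without T1 and T2 the picture in this comparison turned. The median of the members was 0.07, and 36 of 47 (76.6%) were above 0, beside -0.01 and 48.9% of all genes. The alpha ring median was 0.10 with all 7 above 0, and the constitutive catalytic median was 0.15 against -0.01 over all libraries. At an unadjusted p under 0.05 the count was 0 members, against 1.33% of all genes. Leaving out T1 alone gave a member median of 0.24, and leaving out T2 alone gave -0.21. Set side by side by the runs of the column numbers, RNF4 with Dox minus RNF4 without Dox had a median of -0.22 for T2 and T1, -0.06 for T5 and T4, and 0.20 for T13 and T12, with 17, 16 and 44 of 47 members above 0. The labels do not say that these runs are batches.

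RNF4 with Dox over the RING mutant compares active ligase with the mutant under the same drug, though RNF4 itself was near its basal level in 2 of the 3 libraries labelled RING mutant. No member was called, where 0.0% of all genes were. At an unadjusted p under 0.05 there were 0 members, against 1.35% of all genes, and the groups separated for none, against 2.71% of all genes with RNF4 higher and 2.27% with RNF4 lower. The log2 fold changes ran from -0.17 to 0.47 with a median of 0.05, and 31 of 47 (65.96%) were above 0, beside 0.03 and 55.8% over all genes. All 7 alpha ring genes and all 3 constitutive catalytic genes were above 0, with medians of 0.26 and 0.11.

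Here PSMG1, the partner of PSMG2, had the smallest p above 0. It had 75.4, 48.7 and 44.0 CPM in RNF4 with Dox, against 53.7, 46.6 and 37.6 CPM in the RING mutant. T2 alone exceeded all 3 mutant libraries, and the log2 fold change was 0.29 ± 0.27 (SE; unadjusted p = 0.311, adjusted p = 0.99988, edgeR). PSMA6 (0.47 ± 0.66) and PSMD10, a 19S assembly chaperone also known as gankyrin (0.29 ± 0.41), followed. On the other side were PSME4 (-0.17 ± 0.25), PSMB10 (-0.17 ± 0.26) and the 19S subunit PSMD11 (-0.14 ± 0.23), all with edgeR p between 0.511 and 0.537 before adjustment. Without T1 and T2 the member median was -0.12 with 7 of 47 (14.9%) above 0, beside -0.02 and 46.8% of all genes. All 7 alpha ring genes were then below 0 (median -0.37). At an unadjusted p under 0.05 there were 2 members, PSMA3 (-0.41 ± 0.17) and PSMA4 (-0.44 ± 0.19), that is 2 of 47 against 2.0% of all genes, and their adjusted p was 0.9999 in edgeR. With T2 left out, RNF4 with Dox rests on T5 and T13.

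The RING mutant over RNF4 without Dox had the widest member changes of the 3 comparisons, and shares its libraries with the other two. These groups differ in both the transgene and the drug, whose parts cannot be told apart here. RNF4 itself was near its basal level in the mutant libraries T3 and T14. No member was called, where 0.0% of all genes were, and 0 members had an unadjusted p under 0.05, against 1.75% of all genes. The groups separated for none, against 1.2% of all genes with the mutant higher and 2.58% with it lower. The log2 fold changes ran from -1.12 to 0.25 with a median of -0.11, and 19 of 47 (40.4%) were above 0, beside -0.04 and 43.2% over all genes. All 7 alpha ring genes (median -0.54) and all 4 chaperones of 20S assembly (median -0.32) were below 0.

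PSMA6 had the smallest p, with 11.0, 9.71 and 10.9 CPM in the RING mutant, against 51.5, 7.64 and 9.71 CPM in RNF4 without Dox. T1 was the highest of the 6, and T4 and T12 were at or below the mutant libraries. The log2 fold change was 0.29 without T1, and over all libraries it was -1.12 ± 0.66 (SE; unadjusted p = 0.123, adjusted p = 0.99996, edgeR). PSMG3 (-0.49 ± 0.39) and PSMA5 (-0.76 ± 0.68) followed, also with T1 as the highest library and with unadjusted p of 0.236 and 0.292 in edgeR. Above 0 were PSMC5 (0.25 ± 0.22), PSMD11 (0.23 ± 0.23) and PSME3 (0.23 ± 0.26). PSMC5 had 229, 193 and 190.0 CPM in the RING mutant, against 135, 201 and 178 CPM in RNF4 without Dox, so that T1 was the lowest of the 6.

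Without T1 and T2, 42 of 47 members (89.4%) were above 0 in the RING mutant, with a median of 0.19, beside 52.7% and 0.02 over all genes. The alpha ring median was 0.47, with all 7 genes above 0. At an unadjusted p under 0.05 there were 6 of 47 members, against 5.18% of all genes: PSMA3 (0.47 ± 0.17), PSMA4 (0.50 ± 0.19), PSMA5 (0.54 ± 0.21), PSMA2 (0.50 ± 0.22), PSMC6 (0.34 ± 0.14) and PSMD13 (0.43 ± 0.19). Their adjusted p in edgeR lay between 0.9465 and 0.9544, so none was called. RNF4 without Dox then rests on T4 and T12. The mutant libraries were not alike: 45, 32 and 8 of 47 members lay above the mean of the 7 remaining libraries in T3, T6 and T14. In T4 and T12 it was 23 and 3, and in T5 and T13 it was 16 and 24.

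In a test for any difference among the 3 groups 0.0% of all genes and no member were called, and no member had an unadjusted p under 0.05, against 1.1% of all genes. The authors' deposited tables gave no proteasome gene an adjusted p under 0.05 either, where 3, 8 and 19 of 16002 genes passed in the comparisons in the order above. Over 47 members the authors' deposited tables gave median log2 fold changes of -0.07, 0.06 and -0.12 in the same order.

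Genes that work with the proteasome were counted from lists by role, and none of their members was called in any comparison, with or without T1 and T2. Over all genes, 44.35% were above 0 in RNF4 with Dox over RNF4 without Dox (median -0.03). Among 13 subunits and partners not named PSM, 5 were above 0 in that comparison (median -0.08). POMP and PITHD1 had the smallest p there, with -0.51 ± 0.64 and -0.09 ± 0.17. Over the 7 libraries that leave out T1 and T2, 4 of the 13 were above 0 (median -0.03), and POMP turned sign, to 0.17 ± 0.21. Among 12 genes of transcriptional control 7 were above 0 (median 0.00), led by NGLY1, the deglycosylase that prepares NFE2L1 (0.12 ± 0.17), and NFYC, a subunit of the CCAAT-binding factor (0.13 ± 0.19). Over the same 7 libraries these were 0.01 ± 0.16 and 0.09 ± 0.19, with 5 of the 12 above 0 (median -0.04). NFE2L1, the factor that raises proteasome genes when the protease is inhibited, had 182, 273 and 281 CPM in RNF4 with Dox, 263, 230.1 and 289 CPM in the RING mutant, and 132, 272 and 302 CPM in RNF4 without Dox. It was the lowest in T1 and T2, where the alpha ring genes were highest. NFE2L1 is named after its values were seen.

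Of 6 genes of ubiquitin and its activation 2 were above 0 in the same comparison (median -0.05). RPS27A, which encodes ubiquitin fused to a ribosomal protein, had 4404, 1053 and 1216 CPM in RNF4 with Dox, against 11420.0, 825 and 1021 CPM in RNF4 without Dox, and a log2 fold change of -0.99 ± 0.96. T1 was far above the rest, and without T1 and T2 the fold change was 0.30 ± 0.26, with 4 of the 6 above 0 (median 0.05). Of 13 shuttle and segregase genes 9 were above 0 (median 0.07). UFD1, a cofactor of the segregase, had -0.19 ± 0.29. Over the 7 libraries, 6 of the 13 were above 0 (median -0.01), and UFD1 had -0.11 ± 0.15. Among 14 tested genes of class I presentation 8 were above 0 (median 0.04), with ERAP2, a peptide-trimming protease, at -0.42 ± 0.37 and B2M, the light chain of class I molecules, at -0.84 ± 0.80. B2M had 2233, 672 and 888 CPM in RNF4 with Dox, against 5391, 596 and 804 CPM in RNF4 without Dox, with T2 and T1 each the highest of their group. Its sign turned without T1 and T2, to 0.16 ± 0.32, while ERAP2 had -0.30 ± 0.29 and 7 of the 14 were above 0 (median 0.00). Among 13 interferon signalling genes 4 were above 0 (median -0.10), with IFNAR2 at -0.19 ± 0.30 and IFNAR1 at -0.13 ± 0.23. They had, without T1 and T2, -0.31 ± 0.29 and -0.23 ± 0.15, with 5 of the 13 above 0 (median -0.07). None of the genes of these lists had an unadjusted p under 0.05 in this comparison by edgeR over the 9 libraries, against 0.596% of all genes. With T1 and T2 left out, 1 gene of these lists did, the class I heavy chain HLA-C, against 1.33% of all genes. The lists held 13, 12, 6, 13, 14 and 13 tested genes in the order given. HLA-C had -0.99 ± 0.31 (unadjusted p = 0.0118, edgeR) beside -0.40 ± 0.39 over all libraries, and it was not called.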

How the data were processed

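Whole-tumour poly(A) RNA of 9 libraries was analysed from the deposited table of raw read counts per gene. Per the submitters' processing notes, reads were aligned to GRCh38 with TopHat2 2.0.13, counted with HTSeq 0.6.0 and compared with DESeq2 1.10.1; the annotation release is not given in the sources used here. The authors' log2 fold changes and adjusted p-values, deposited in 3 tables, were used only where named. Identifiers were matched without version to GENCODE 29 (52338 of 57820), which gave coordinates and lengths. Columns carry the group, but their T numbers are in no sample title, so they name libraries; each of their 3 unbroken runs holds 1 library of each group, is called a batch by no label, and was used only in an alternative and a side-by-side description. Counts were scaled by TMM, filtered with filterByExpr (18618 genes kept) and fitted over the 9 libraries with edgeR 4.0.16 (quasi-likelihood, Benjamini-Hochberg adjustment over all genes), in R 4.3.3. The SE is the log2 fold change divided by the root of F. The scripts were tested on simulated data. The alternatives were DESeq2 1.42.0, limma 3.58.1 (voom with quality weights), other scalings and filters, a likelihood ratio test, a block for the column runs, and leaving out libraries; partner lists and catalytic levels without T1 and T2 were added after the data were seen. Members, lists and the removal of T1 and T2 were chosen with earlier results of these data known. Genes named were, in each comparison, the 3 members with the smallest p in each direction, the catalytic subunits, activators, PSMD2, PSMD4 and PSMD14, the 3 with the largest spread, the highest and lowest level of each class, and the 2 genes of smallest p in each list, some of which are not reported here; PSMA3, PSMA4 and others in the account of T1 and T2 were added after their values were seen. A tested member had 137 reads or more in every library; the Poisson error of log2 level at its fewest reads was below its SD over the 7 libraries other than T1 and T2 for all but PSMC3IP (0.11 against 0.09).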

Additional observations from a re-analysis of the deposited data

How the results depend on the processing

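No paired analysis was possible because the count columns carry no replicate number of the sample titles. A block for the 3 runs of column numbers, which no label calls pairs or batches, gave 0 calls in each comparison and 20, 28 and 19 of 47 members above 0, in the order given next. No proteasome gene was called under any alternative run. Over all genes, where 0 were called, no low-count filter gave 3 calls in RNF4 with Dox over RNF4 without Dox, 38 in RNF4 with Dox over the RING mutant, 109 in the RING mutant over RNF4 without Dox and 87 for any difference. The likelihood ratio test gave 1, 3, 5 and 5 in the same order, DESeq2 gave 3 in the first and 3 in the third comparison and 2 for any difference, and removing T1 and T2 gave 1 in the third. Leaving out single libraries gave 0 to 1 in the first comparison and 0 to 1 for any difference, the 1 being without T6. The cause was not tested.

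Directions of the members depended on T1 and T2. Members above 0, in the same order of comparisons, were 36, 7 and 42 of 47 without T1 and T2, and 43, 16 and 45 under voom with quality weights, against 18, 31 and 19. Single libraries left out gave 13 to 37, 10 to 39 and 11 to 42. The member median was 0.19 without T1 and T2 in the RING mutant over RNF4 without Dox, and leaving out single libraries gave -0.21 to 0.24 in the first and -0.26 to 0.19 in the third comparison.

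Named members turned sign as follows. In RNF4 with Dox over RNF4 without Dox, PSMC1 had -0.013 and PSMA6 0.25 without T1 and T2, and PSMA6 0.17 under voom; single libraries left out gave -0.67 to 0.27 for PSMG3, -1.15 to 0.77 for PSMA6 and -0.29 to 0.054 for PSMG4. In RNF4 with Dox over the RING mutant, PSMG1 had -0.004, PSMA6 -0.047 and PSMD10 -0.22 without T1 and T2, and PSMD10 -0.18 under voom; single libraries left out gave -0.033 to 0.68 for PSMA6 and -0.21 to 0.50 for PSMD10. In the RING mutant over RNF4 without Dox, PSMA6 had 0.29, PSMG3 0.17 and PSMA5 0.54 without T1 and T2, and 0.025, 0.08 and 0.38 under voom; single libraries left out gave -1.54 to 0.29 for PSMA6, -0.74 to 0.16 for PSMG3 and -1.14 to 0.53 for PSMA5. With 3 libraries a group, differences within the spread of 0.29 (SD of the members' mean log2 level between replicate libraries) were not resolved.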
